A study of Homo sapiens with 16 samples.

Results

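The dependence of the doxorubicin response on BMAL1 was examined in MDA-MB-231 cells, a human line of triple-negative invasive breast cancer. The members are the genes for which the response of BMAL1 -/- (KO) cells could be set against that of wild-type (WT) cells. RNA-seq was done on KO cells under doxorubicin, WT cells under doxorubicin, KO cells under control treatment and WT cells under control treatment, all at passages 10 to 15, with 2 replicates, which the labels call biological, in each of these 4 groups. These 8 samples are part of 16 in a study that also treated both genotypes with cisplatin and tunicamycin. The sources used here give no doses, treatment times or number of knockout clones. The expression unit was FPKM (read fragments per length of transcript, scaled to the mapped total), and the authors deposited 1 pooled FPKM per gene and group, so no value has an SD or n of its own. A gene was a member when it reached 5 FPKM or more in 1 group of the doxorubicin table and in 1 group of the control table, which kept 6180 of 60658 genes (10.2%), of which 5913 were protein-coding. The kept gene nearest the floor was RBM14 at 5.002 FPKM, and the left-out gene nearest it was TMEM150A at 4.996 FPKM.

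BMAL1, encoded by ARNTL, is a bHLH-PAS transcription factor that pairs with CLOCK or NPAS2, binds E-box elements in DNA and drives the circadian clock genes, including its own repressors of the PER and CRY families. Doxorubicin is an anthracycline that intercalates into DNA and traps topoisomerase II on broken strands, which sets off damage signalling and lowers transcription of many genes. MDA-MB-231 cells carry mutant p53, so the usual p53 arm of the damage response is impaired in this line.

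ARNTL itself stood at 0.474 FPKM in KO cells and 1.31 FPKM in WT cells under doxorubicin, and at 0.889 FPKM in KO cells and 5.67 FPKM in WT cells under control treatment. The authors' deposited table gave the KO over WT log2 ratio as -1.47 under doxorubicin (q = 0.00509) and -2.67 in control (q = 0.000213), so the targeted gene was lower in KO in both tables and was not at 0. It fell short of the floor under doxorubicin and has no place among the members. All 8 markers of this mesenchymal-like line that were looked up were kept, among them VIM and CD44. Of 10 luminal and epithelial markers 4 were kept (KRT8, KRT18, KRT19 and EPCAM), ESR1 did not exceed 0.00532 FPKM in the 4 groups, and PGR was listed at 0. The extraction protocol in the labels speaks of fibroblasts, but none of 9 fibroblast markers was kept. The highest value was 6.83 FPKM for PDGFRB in KO control, where COL1A1 also passed 5 FPKM with 5.74 FPKM. Under doxorubicin PDGFRB did not exceed 2.31 FPKM and COL1A1 1.44 FPKM, so neither was kept. None of 5 leukocyte markers exceeded 0.920 FPKM. Genes at 5 FPKM or more numbered 5896 in KO and 5998 in WT cells under doxorubicin, against 8773 in KO and 8690 in WT cells under control treatment. Mitochondrial mRNAs made up 9.37% of the summed FPKM in KO and 9.71% in WT cells under doxorubicin, against 3.62% in KO and 4.95% in WT control cells. Because RNA was taken from bulk cultures, fewer cells of a kind and less RNA per cell cannot be told apart in any of these values.

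For each gene the response was log2((doxorubicin + 1)/(control + 1)) of the group FPKM within a genotype, and D was the KO response minus the WT response. A positive D therefore means that the gene was higher under doxorubicin, relative to control, in KO cells than in WT cells. With 1 pooled value per group D has no test, and a gene was called when D was 1 or more or -1 or less, that is, when the responses differed by 2-fold. The genotypes responded much alike. Responses of -1 or less were found for 1473 genes in KO cells (23.8%) and 1368 genes in WT cells (22.1%), and 1141 genes had them in both. Responses of 1 or more were found for 309 genes in KO cells (5.0%) and 274 genes in WT cells (4.43%), and 135 genes had them in both. Across the 6180 genes, which are not independent replicates, the KO and WT responses had a Pearson r of 0.855 and a Spearman rho of 0.879.

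D lay under 0.5 in size for 4652 genes (75.3%). Its median was 0.05, its 25th and 75th percentiles were -0.23 and 0.30, and its 5th and 95th percentiles were -0.83 and 0.69. D was 1 or more in 79 genes (1.28%) and -1 or less in 202 genes (3.27%), so 28.1% of the called genes were on the higher side. That split depended on how the groups were scaled. When each group was scaled to the same summed FPKM over nuclear genes, the median D moved by -0.25, 36 genes had D of 1 or more, 360 had D of -1 or less, and the higher side held 9.09% of the calls. The summed FPKM over all genes was 949136 in KO and 820675 in WT cells under doxorubicin, against 696343 in KO and 687900 in WT control cells. The gene just past the upper threshold was ITGB1P1 with D of 1.005 and the one just short of it was SIRT7 with 0.996. At the lower threshold G0S2 had -1.002 and IL11 -0.9996.

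D is built from 4 values, and 1 unusual group can set it. WT control was therefore checked alone: a gene was set apart when its WT control value lay above or below the other 3 groups by more than the range of those 3 on the log2 scale. This held for 486 genes (7.86%), of which 242 were higher and 244 lower in WT control. The same check singled out KO doxorubicin in 647 genes, WT doxorubicin in 350 and KO control in 499. Over all kept genes WT control was therefore not the group that stood alone most often. Among the 486 genes set apart, 12 had D of 1 or more (2.47%) and 56 had D of -1 or less (11.5%), while among the other 5694 genes 67 (1.18%) and 146 (2.56%) did. Among called genes, though, WT control stood alone most often. Genes in which KO doxorubicin stood alone included 4 with D of 1 or more and 45 with D of -1 or less. These counts were 9 and 4 for WT doxorubicin, and 9 and 22 for KO control. Of the 68 called genes that were set apart, 31 were pseudogenes and 24 protein-coding. Called protein-coding genes numbered 49 for KO doxorubicin, 28 for KO control and 13 for WT doxorubicin. In WT control 19 of all genes set apart were listed at 0, against 0 for each other group. TMEM9B was set apart by the narrowest margin, with a gap of 1.0003 times the range, and RAD51B was the nearest gene left in, with 0.994.

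The named set-apart genes with the most negative D were 3 copies of a small RNA and a pseudogene. RNU6-33P, a copy of the U6 spliceosomal RNA, had 51.1 FPKM under doxorubicin against 96.7 FPKM in control in KO cells, and 104 FPKM under doxorubicin in WT cells, and was listed at 0 in WT control. RNU6-1 and RNU6-42P were also listed at 0 in WT control alone, with 25.6 to 94.6 FPKM in the other 3 groups, as was PDIA3P2, an unprocessed pseudogene, with 105 FPKM in KO doxorubicin. Such near-identical copies share reads, and the values of single copies are uncertain. On the other side, IMMP1L, a mitochondrial inner membrane peptidase subunit, had 6.13 FPKM under doxorubicin against 20.0 FPKM in control in KO cells, and 6.78 FPKM under doxorubicin against 121 FPKM in control in WT cells (D = 2.41). The authors' deposited tables did not call IMMP1L different between genotypes under doxorubicin (q = 0.722) or in control (q = 0.111). SNRPGP2, a pseudogene of a spliceosomal protein gene, and EFCAB11 had D of 2.19 and 1.76, with WT control above the other groups in both. ID2, an inhibitor of bHLH transcription factors, was set apart too. It had 18.7 FPKM under doxorubicin against 26.1 FPKM in control in KO cells and 15.9 FPKM under doxorubicin against 4.41 FPKM in control in WT cells, where WT control was the low value (D = -2.10). In KO cells, as in WT cells under doxorubicin, ID2 lay between 15.9 and 26.1 FPKM. The other genes described were not set apart unless this is said.

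**Figure D1:**
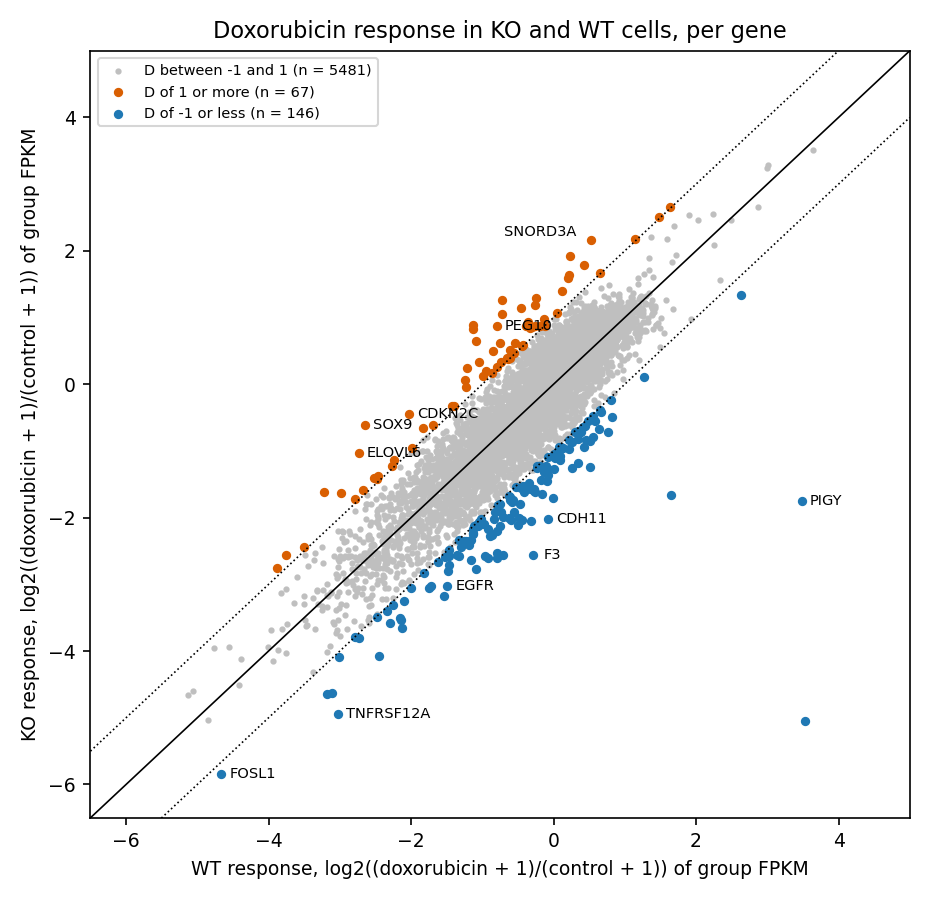
Doxorubicin response of each gene in KO cells (y axis) and WT cells (x axis), as log2((doxorubicin + 1)/(control + 1)) of group FPKM, for the 5694 genes not set apart; the solid line marks equal responses and the dotted lines D of 1 and -1. Orange points are the 67 genes with D of 1 or more, blue points the 146 with D of -1 or less, and grey points the other 5481, most of which lie along the line of equal response.

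The 146 genes with D of -1 or less were mostly genes whose level was lower under doxorubicin than in control in KO cells. The KO response was negative in 144 of them and the WT response in 106, with a median of -1.92 in KO cells and -0.58 in WT cells. They fell into 77 with responses of at least 0.5 in the same direction in both genotypes, 39 with a response of 1 or more in size in KO cells and under 0.5 in WT cells, 9 with opposite responses of at least 0.5, 1 with a response in WT cells alone, and 20 others.

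Of the KO-only genes on the lower side, F3 had the most negative D of those named. It encodes tissue factor, the membrane receptor that starts blood clotting (chr1:94529225-94541800 in GRCh38, ENSG00000117525). F3 had 5.62 FPKM under doxorubicin against 37.9 FPKM in control in KO cells, and 40.5 FPKM under doxorubicin against 49.7 FPKM in control in WT cells, so 1 of the 4 values was low (D = -2.27). The authors' deposited tables called F3 lower in KO both under doxorubicin (q = 0.000186) and in control (q = 0.000951). CDH11, a mesenchymal cadherin on chr16:64943753-65126112, had 7.97 FPKM under doxorubicin against 35.4 FPKM in control in KO cells and 11.7 FPKM under doxorubicin against 12.5 FPKM in control in WT cells (D = -1.94). For CDH11 the KO control value was the high one, and the authors' tables called it higher in KO control (q = 0.000213) and lower in KO doxorubicin (q = 0.0312). PODXL, a sialomucin of the cell surface on chr7:131500262-131558217, had 17.3 FPKM under doxorubicin against 74.7 FPKM in control in KO cells and 38.5 FPKM under doxorubicin against 48.0 FPKM in control in WT cells (D = -1.74). SLC6A6, the taurine transporter, had 9.83 FPKM under doxorubicin against 34.5 FPKM in control in KO cells and 13.7 FPKM under doxorubicin against 13.7 FPKM in control in WT cells (D = -1.71). WT cells thus gave nearly equal values of SLC6A6 with and without the drug. CBFB, the partner that strengthens DNA binding by RUNX factors, had responses of -2.10 in KO and -0.50 in WT cells, and PLXNA1, a semaphorin receptor, -2.04 in KO and -0.44 in WT cells. SEL1L, an adaptor of ER-associated degradation, had 8.01 FPKM under doxorubicin against 20.7 FPKM in control in KO cells and 11.7 FPKM under doxorubicin against 11.6 FPKM in control in WT cells (D = -1.28). SLC7A11, the cystine importer that feeds glutathione synthesis, had 5.90 FPKM under doxorubicin against 19.5 FPKM in control in KO cells and 5.71 FPKM under doxorubicin against 7.72 FPKM in control in WT cells (D = -1.19). In this gene the doxorubicin levels of the genotypes were close and the control levels were not (q = 0.648 in the authors' doxorubicin table and 0.000213 in their control table). With a pseudocount of 5 instead of 1, D was -0.99 for SEL1L and -0.92 for SLC7A11, short of the threshold.

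Of the 77 genes with the same direction in both genotypes on the lower side, 76 were lower under doxorubicin in both and more so in KO cells, and 1 was higher in both. TNFRSF12A encodes Fn14, the receptor of the cytokine TWEAK (chr16:3018445-3022383). It had 4.45 FPKM under doxorubicin against 167 FPKM in control in KO cells and 20.3 FPKM under doxorubicin against 173 FPKM in control in WT cells, which are responses of -4.95 and -3.03 (D = -1.92). Control levels were alike (q = 0.620 in the authors' control table), and the genotypes parted under the drug (q = 0.000186 in their doxorubicin table). EGFR, the epidermal growth factor receptor on chr7:55019021-55211628, showed the same order, with 3.74 FPKM under doxorubicin against 37.4 FPKM in control in KO cells and 12.5 FPKM under doxorubicin against 37.0 FPKM in control in WT cells (D = -1.52; q = 0.000186 under doxorubicin and 0.828 in control). FOSL1, an AP-1 subunit induced through MAPK signalling, had 3.65 FPKM under doxorubicin against 266 FPKM in control in KO cells and 9.26 FPKM under doxorubicin against 258 FPKM in control in WT cells (D = -1.19). TGFBR2, the type II receptor of TGF-beta, had 1.55 FPKM under doxorubicin against 27.9 FPKM in control in KO cells and 8.61 FPKM under doxorubicin against 42.0 FPKM in control in WT cells (D = -1.34). These 4 genes reached their lowest level in KO cells under doxorubicin. The doxorubicin levels of FOSL1 and TGFBR2 in KO cells are near the pseudocount, and with a pseudocount of 5 their D was -0.76 and -0.54.

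The same pattern was found in other named genes. SLC2A1, the glucose transporter GLUT1, had 66.3 FPKM under doxorubicin against 415 FPKM in control in KO cells and 249.9 FPKM under doxorubicin against 556 FPKM in control in WT cells (D = -1.48). SLC7A1, a carrier of arginine and lysine, had 15.4 FPKM under doxorubicin against 110.4 FPKM in control in KO cells and 21.6 FPKM under doxorubicin against 47.2 FPKM in control in WT cells (D = -1.67). SLC2A1 had its lowest value in KO doxorubicin by a clear margin, while for SLC7A1 KO control was the highest value and the doxorubicin levels were closer. SEMA7A, a membrane-anchored semaphorin, had responses of -2.56 in KO and -0.71 in WT cells, and IGFBP1, a secreted binder of insulin-like growth factors, -2.61 in KO and -0.79 in WT cells. MINK1, a kinase of the STE20 family, had 2.87 FPKM under doxorubicin against 21.3 FPKM in control in KO cells and 14.5 FPKM under doxorubicin against 25.9 FPKM in control in WT cells (D = -1.73). ITGA2, the alpha subunit of a collagen-binding integrin, had 2.15 FPKM under doxorubicin against 18.1 FPKM in control in KO cells and 11.4 FPKM under doxorubicin against 22.6 FPKM in control in WT cells (D = -1.68, and -0.94 with a pseudocount of 5). In each of these 6 genes the KO response was the more negative by more than 2-fold.

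On the higher side, the 67 genes with D of 1 or more split differently. Their median response was 0.50 in KO cells and -0.75 in WT cells, with a positive KO response in 46 and a negative WT response in 56. They comprised 22 genes with responses in the same direction, 10 with opposite responses, 9 with a response in KO cells alone, 7 with a response in WT cells alone and 19 others. Of the 22 with the same direction, 17 were lower under doxorubicin in both genotypes and 5 higher in both.

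SOX9, an HMG-box transcription factor of progenitor cells (chr17:72121020-72126420), had 10.4 FPKM under doxorubicin against 16.4 FPKM in control in KO cells and 4.42 FPKM under doxorubicin against 33.1 FPKM in control in WT cells (D = 2.04). The order of the genotypes turned over, with SOX9 higher in KO under doxorubicin (q = 0.000186) and lower in KO in control (q = 0.000213) in the authors' deposited tables. ELOVL6, an elongase of long-chain fatty acids, had 12.2 FPKM under doxorubicin against 26.0 FPKM in control in KO cells and 2.30 FPKM under doxorubicin against 20.9 FPKM in control in WT cells (D = 1.70, and 0.98 with a pseudocount of 5). AIMP2, a scaffold of the tRNA synthetase complex, had 11.6 FPKM under doxorubicin against 37.6 FPKM in control in KO cells and 8.35 FPKM under doxorubicin against 86.0 FPKM in control in WT cells (D = 1.61). In all 3 the WT doxorubicin value was the lowest of the 4. KLHDC3, a kelch-repeat protein, had responses of -1.63 in KO and -2.98 in WT cells, and IGF2BP2, an mRNA-binding protein, -2.56 in KO and -3.76 in WT cells. For IGF2BP2 D was 1.20 as deposited and 0.96 at equal summed FPKM. The authors' deposited tables did not call IGF2BP2 different between genotypes under doxorubicin (q = 0.387) or in control (q = 0.325). ID1, a bHLH inhibitor like ID2, had 17.8 FPKM under doxorubicin against 125 FPKM in control in KO cells and 9.45 FPKM under doxorubicin against 154 FPKM in control in WT cells (D = 1.14, and 0.89 at equal summed FPKM). SNORD3A, the U3 small nucleolar RNA that guides ribosomal RNA processing, was higher under doxorubicin in both, with 82.2 FPKM under doxorubicin against 17.6 FPKM in control in KO cells and 48.0 FPKM under doxorubicin against 32.9 FPKM in control in WT cells (D = 1.63). It is short and lacks a poly(A) tail, so its level in an mRNA library is uncertain.

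Genes with a response in WT cells alone included CDKN2C, the CDK4 and CDK6 inhibitor p18 (chr1:50960745-50974633). CDKN2C had 21.2 FPKM under doxorubicin against 29.2 FPKM in control in KO cells and 12.2 FPKM under doxorubicin against 53.1 FPKM in control in WT cells (D = 1.59), and was higher in KO under doxorubicin (q = 0.000186) and lower in KO in control (q = 0.000213) in the authors' deposited tables. RAD51B, a gene of homologous recombination, had 5.38 FPKM under doxorubicin against 5.13 FPKM in control in KO cells and 3.13 FPKM under doxorubicin against 8.82 FPKM in control in WT cells (D = 1.31). SNAPC2, a subunit of the complex that starts snRNA transcription, had 20.0 FPKM under doxorubicin against 25.3 FPKM in control in KO cells and 10.9 FPKM under doxorubicin against 30.9 FPKM in control in WT cells (D = 1.10). In these 3 genes the KO response was under 0.5 in size and the WT response past -1. D of SNAPC2 was 0.85 at equal summed FPKM, and D of RAD51B was 0.80 with a pseudocount of 5. C2orf76 had responses of -0.03 in KO and -1.23 in WT cells, and its D of 1.20 was 0.72 with a pseudocount of 5. FGF13, an intracellular FGF homologous factor, was near the pseudocount in KO cells, with 0.491 FPKM under doxorubicin against 0.262 FPKM in control, and had 5.82 FPKM under doxorubicin against 14.8 FPKM in control in WT cells (D = 1.45, and 0.93 with a pseudocount of 5). MYO5A, an unconventional myosin of organelle transport, was the 1 WT-only gene on the lower side, with 6.03 FPKM under doxorubicin against 5.51 FPKM in control in KO cells and 10.0 FPKM under doxorubicin against 3.56 FPKM in control in WT cells (D = -1.16, and -0.74 with a pseudocount of 5).

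CSRP2, a LIM-domain protein of the actin cytoskeleton, was among the 9 genes with a positive response in KO cells alone. It had 36.3 FPKM under doxorubicin against 10.9 FPKM in control in KO cells and 23.8 FPKM under doxorubicin against 20.3 FPKM in control in WT cells (D = 1.43; higher in KO under doxorubicin at q = 0.000186 and lower in KO in control at q = 0.000213 in the authors' deposited tables). HYPK, a partner of an N-terminal acetyltransferase, had 10.7 FPKM under doxorubicin against 3.75 FPKM in control in KO cells and 4.08 FPKM under doxorubicin against 5.04 FPKM in control in WT cells (D = 1.55, and 0.99 with a pseudocount of 5). CST6, an inhibitor of cysteine proteases, had 16.9 FPKM under doxorubicin against 6.84 FPKM in control in KO cells, and was listed at 0 under doxorubicin and at 0.200 FPKM in control in WT cells (D = 1.46, and 0.95 with a pseudocount of 5). CST6 thus had almost no signal in WT cells with or without the drug. COX7CP1, a pseudogene that may share reads with its parent gene, had D of 1.40, or 0.90 with a pseudocount of 5.

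Opposite responses of at least 0.5 in both genotypes were found for the 10 genes on the higher and 9 on the lower side counted above. PEG10, a gene of retrotransposon origin expressed from the paternal allele, had the highest FPKM of those named, though not the largest D. It had 111 FPKM under doxorubicin against 59.9 FPKM in control in KO cells and 54.7 FPKM under doxorubicin against 96.0 FPKM in control in WT cells (D = 1.67). The authors' deposited tables called it higher in KO under doxorubicin (q = 0.000186) and lower in KO in control (q = 0.000213). TMEM135 had 9.95 FPKM under doxorubicin against 5.14 FPKM in control in KO cells and 3.31 FPKM under doxorubicin against 8.43 FPKM in control in WT cells (D = 1.96), and FAM24B had responses of 0.65 in KO and -1.09 in WT cells. On the lower side PDLIM5, a PDZ and LIM scaffold of actin fibres, had 21.1 FPKM under doxorubicin against 38.7 FPKM in control in KO cells and 31.5 FPKM under doxorubicin against 21.8 FPKM in control in WT cells (D = -1.36). SLC23A2, a vitamin C transporter, had responses of -0.71 in KO and 0.77 in WT cells (D = -1.48, and -0.85 with a pseudocount of 5). The remaining named genes of this kind share reads with other loci and are uncertain. PIGY, which overlaps another gene, had 0.867 FPKM under doxorubicin against 5.29 FPKM in control in KO cells, 10.2 FPKM under doxorubicin in WT cells and 0 as listed in WT control. The pseudogenes MT2P1 and SNRPEP4 had D of -3.32 and 2.03, the read-through loci RBM14-RBM4 and MINOS1-NBL1 -1.75 and 1.98, and CDK11A, which has a near-identical neighbour, -1.35 (-0.94 with a pseudocount of 5). A response of 1 or more in KO cells together with -1 or less in WT cells was found for 0 of the 6180 genes, and the reverse for 4 (PIGY, MT2P1, the U6 copy RNU6-5P and a locus known by its clone name).

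**Figure D2:**
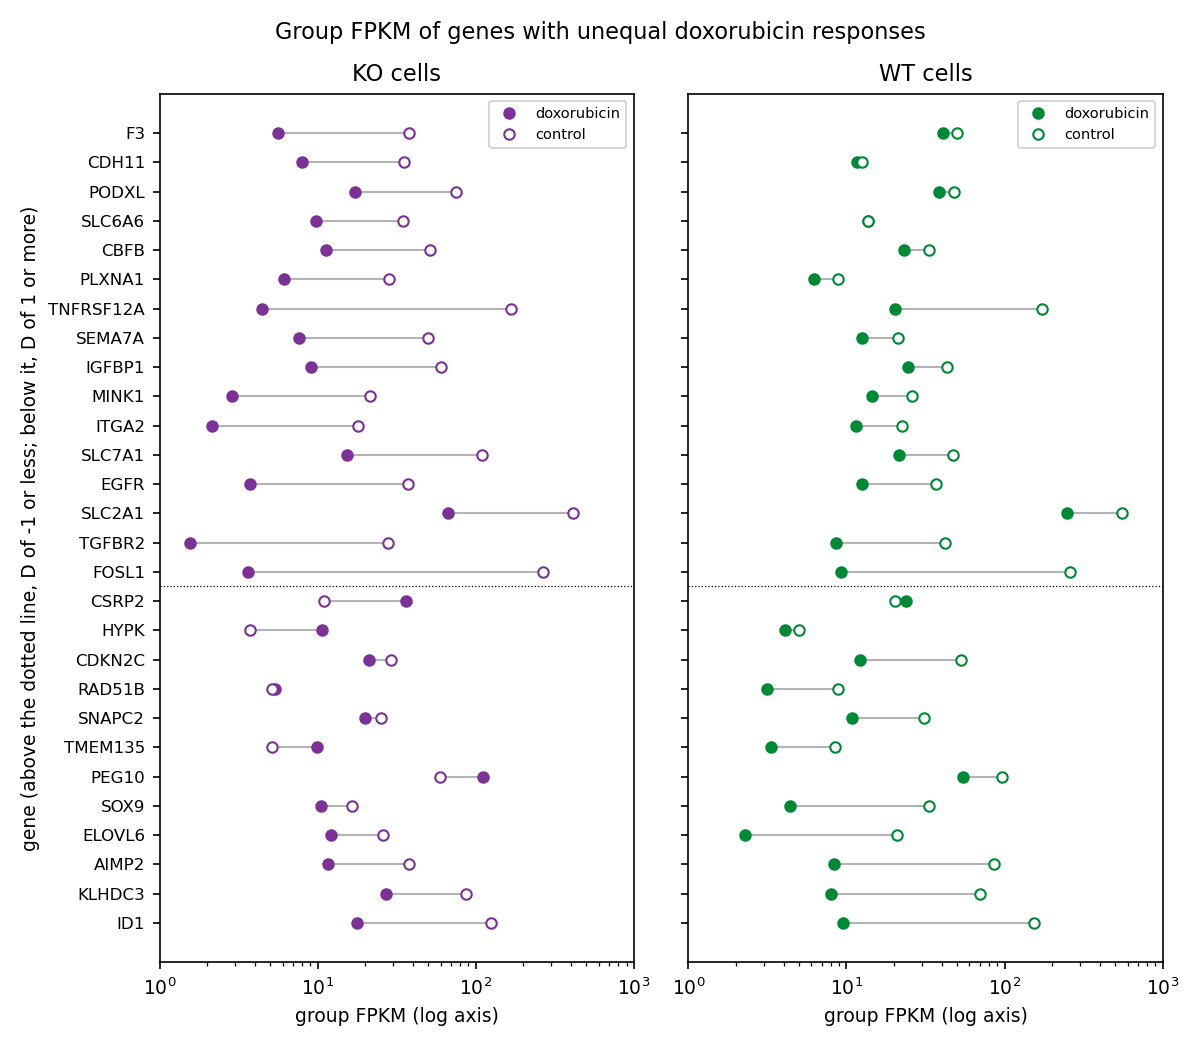
Group FPKM (log axis) of 28 genes under doxorubicin (filled) and control (open) in KO cells (left) and WT cells (right); each point is the authors' pooled value of 1 group. Above the dotted line are genes with D of -1 or less, such as F3, whose KO doxorubicin value of 5.62 FPKM lies far below its KO control value of 37.9 FPKM; below it are genes with D of 1 or more, such as SOX9, whose gap is wide in WT cells.

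Counts of called genes in the lists that follow stand beside 1.28% of all kept genes with D of 1 or more and 3.27% with D of -1 or less. The lists are small, so 1 call changes the share of a list by much, and no list was tested against these shares. The median D over all kept genes was 0.05 as deposited and -0.20 at equal summed FPKM, and the list medians at each scaling stand beside these. Of 12 topoisomerases and their repair enzymes, 9 were kept and 0 were called, with a median D of 0.35, or 0.12 at equal summed FPKM. TOP2A, the main target of the drug in dividing cells, had 42.8 FPKM under doxorubicin against 101 FPKM in control in KO cells and 51.9 FPKM under doxorubicin against 159.9 FPKM in control in WT cells (D = 0.38). TOP1, the topoisomerase that nicks 1 strand, had 78.7 FPKM under doxorubicin against 95.8 FPKM in control in KO cells and 38.2 FPKM under doxorubicin against 85.5 FPKM in control in WT cells (D = 0.86). TDP2, which removes trapped topoisomerase II from DNA ends, had D of 0.77, and TDP1, which acts on topoisomerase I, 0.36. TOP2A was lower under the drug in both genotypes, and TOP1 had a larger difference in WT than in KO cells. Of 32 genes of double-strand break repair and signalling, 13 were kept and 0 were called. Their median D was 0.24 as deposited and -0.012 at equal summed FPKM. XRCC4 of end joining had D of 0.84, the recombination gene RAD51C 0.61 and the kinase gene PRKDC 0.54. The recombination gene RAD51B, called with D of 1.31, is not in this list, so the list does not cover all repair genes. Of 24 p53 targets 10 were kept and 0 called (median D 0.10, and -0.14 at equal summed FPKM). TNFRSF10B, the death receptor DR5, had 12.7 FPKM under doxorubicin against 24.2 FPKM in control in KO cells and 25.6 FPKM under doxorubicin against 24.3 FPKM in control in WT cells (D = -0.95, and -1.20 at equal summed FPKM, past the threshold). Among the others TIGAR, a regulator of glycolysis, had D of 0.80, the cyclin CCNG1 0.56 and the ferredoxin reductase FDXR 0.55. Of 20 drug transporter and anthracycline-reducing genes 10 were kept and 0 called (median D 0.04, and -0.21 at equal summed FPKM). ABCC1, an efflux pump for anthracyclines, had 13.9 FPKM under doxorubicin against 27.8 FPKM in control in KO cells and 13.7 FPKM under doxorubicin against 16.0 FPKM in control in WT cells (D = -0.74). CBR3, a carbonyl reductase, had D of 0.83, and ABCC5 0.59.

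Of 30 genes of G2/M and the spindle 20 were kept, and 16 of these had responses of -1 or less in KO cells and 16 in WT cells, beside 23.8% in KO and 22.1% in WT cells over all kept genes. The median response was -2.16 in KO cells and -2.08 in WT cells, and 0 genes were called. Their median D was 0.24 as deposited and -0.0040 at equal summed FPKM. TPX2, a spindle assembly factor, had 33.8 FPKM under doxorubicin against 187 FPKM in control in KO cells and 27.0 FPKM under doxorubicin against 265 FPKM in control in WT cells (D = 0.81), and CDC25B, a phosphatase that activates CDK1, had D of 0.81. CDK1 and PTTG1 were set apart, with D of 0.78 and 0.57. Their responses were 0.28 and 0.20 in KO cells, above 0, and -0.50 and -0.38 in WT cells. Of 39 S-phase genes 28 were kept, 0 had D of 1 or more and 1 had D of -1 or less, with a median D of -0.07, or -0.32 at equal summed FPKM. The called gene was CDC6, which loads the replicative helicase, with 17.2 FPKM under doxorubicin against 78.2 FPKM in control in KO cells and 19.2 FPKM under doxorubicin against 43.0 FPKM in control in WT cells (D = -1.003, and -0.92 with a pseudocount of 5). MCM3 had D of -0.54, RRM2 -0.47 and TYMS 0.45. The median S-phase response was near 0 in both genotypes, at -0.03 in KO and 0.01 in WT cells, unlike that of the G2/M genes. Of 54 clustered histone genes 4 were kept and 0 called (median D 0.05, and -0.19 at equal summed FPKM), with D of 0.32 for HIST1H1C, 0.15 for HIST1H2BK, -0.04 for HIST1H2BD and -0.62 for HIST2H2AC, which was set apart. Most histone mRNAs lack a poly(A) tail, so their level in an mRNA library is uncertain.

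Genes of cell death and inflammation are given beside the same shares of 1.28% and 3.27%. Of 17 BCL2 family genes 8 were kept and 0 called (median D -0.06, and -0.30 at equal summed FPKM). PMAIP1, the BH3-only protein NOXA, had responses of -1.03 in KO and -1.64 in WT cells (D = 0.61), and BCL2L2 had D of -0.59, BOK -0.26 and BAD 0.19. Of 24 death receptor and caspase pathway genes 9 were kept and 0 called, with a median D of 0.41, or 0.20 at equal summed FPKM and 0.14 with a floor of 1 FPKM. BIRC2, an inhibitor of apoptosis, had 10.9 FPKM under doxorubicin against 37.5 FPKM in control in KO cells and 13.4 FPKM under doxorubicin against 70.3 FPKM in control in WT cells (D = 0.62), and its antagonists HTRA2 and DIABLO had D of 0.61 and 0.52. These 3 were lower under doxorubicin in both genotypes and more so in WT cells. Of the 9 kept genes 7 had D above 0 and 2 below. The largest D in size was that of the death receptor gene TNFRSF10B, given above, at -0.95, and -1.20 at equal summed FPKM. Of 15 NF-kB subunit and feedback genes 7 were kept, 0 had D of 1 or more and 1 had D of -1 or less, and 6 of the 7 were below 0 (median -0.33, and -0.55 at equal summed FPKM). The called gene was TNFAIP2, an NF-kB target, with 13.0 FPKM under doxorubicin against 58.6 FPKM in control in KO cells and 9.72 FPKM under doxorubicin against 20.0 FPKM in control in WT cells (D = -1.12). RELA and NFKB1, the genes of the main subunits, had D of -0.45 and -0.33, and TNIP1, a feedback inhibitor, -0.70. Of 23 cytokine genes 7 were kept, 0 had D of 1 or more and 2 had D of -1 or less (median -0.33). The median turned to 0.20 with a floor of 10 FPKM and was -0.59 at equal summed FPKM. IL6 had 2.16 FPKM under doxorubicin against 5.05 FPKM in control in KO cells and 6.84 FPKM under doxorubicin against 4.85 FPKM in control in WT cells (D = -1.36, and -0.76 with a pseudocount of 5). CSF1, the macrophage growth factor, had 4.49 FPKM under doxorubicin against 27.4 FPKM in control in KO cells and 6.10 FPKM under doxorubicin against 16.0 FPKM in control in WT cells (D = -1.11, and -0.85 with a pseudocount of 5). IL11, the highest of these cytokines, had 190.3 FPKM under doxorubicin against 384 FPKM in control in KO cells and 215 FPKM under doxorubicin against 217 FPKM in control in WT cells, and the KO control value was the one that stood out. IL24 was near the pseudocount in KO cells, with 0.499 FPKM under doxorubicin against 0.520 FPKM in control, and had 6.81 FPKM under doxorubicin against 13.6 FPKM in control in WT cells (D = 0.88).

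Of 30 interferon-stimulated genes 13 were kept and 0 called, beside 1.28% and 3.27% over all kept genes (median D 0.28, and 0.033 at equal summed FPKM). BST2, a tetherin of viral particles, had 19.5 FPKM under doxorubicin against 8.64 FPKM in control in KO cells and 2.66 FPKM under doxorubicin against 2.01 FPKM in control in WT cells (D = 0.80). OASL and IFIT2 had D of 0.51 and 0.48, and OAS3 -0.40. Of 26 antigen presentation genes 20 were kept and 0 called, with a median D of 0.10 as deposited and -0.17 at equal summed FPKM. Responses of 1 or more were found for 7 of them in KO and 6 in WT cells, beside 5.0% in KO and 4.43% in WT cells over all kept genes. B2M, the light chain of class I molecules, had 1524 FPKM under doxorubicin against 837 FPKM in control in KO cells and 1199 FPKM under doxorubicin against 1064 FPKM in control in WT cells (D = 0.69). PSME2, a proteasome activator subunit, had D of 0.61, and the class II genes HLA-DMA and HLA-DRA 0.42 and 0.39.

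In the stress lists the called genes were SLC7A11, which is in 2 of them, SRXN1 and SEL1L, all with D of -1 or less, beside 1.28% higher and 3.27% lower over all kept genes. Of 24 NRF2 and iron genes 19 were kept and 2 had D of -1 or less, SLC7A11 and SRXN1 (median 0.05, and -0.21 at equal summed FPKM). SRXN1, the sulfiredoxin that repairs peroxiredoxins, had 8.49 FPKM under doxorubicin against 88.9 FPKM in control in KO cells and 12.5 FPKM under doxorubicin against 56.7 FPKM in control in WT cells (D = -1.15, and -0.98 with a pseudocount of 5). GCLM of glutathione synthesis had D of -0.94, and SQSTM1, the autophagy receptor p62, had 617 FPKM under doxorubicin against 829.9 FPKM in control in KO cells and 430.2 FPKM under doxorubicin against 322 FPKM in control in WT cells (D = -0.85). Both passed the threshold at equal summed FPKM, with -1.19 for GCLM and -1.11 for SQSTM1. Of 21 ATF4 genes 14 were kept and SLC7A11 was the 1 called (median -0.11, and -0.37 at equal summed FPKM). ATF3, a stress-induced factor, was higher under the drug in both, with 19.1 FPKM under doxorubicin against 3.34 FPKM in control in KO cells and 16.4 FPKM under doxorubicin against 5.77 FPKM in control in WT cells (D = 0.85). DDIT4, an inhibitor of mTORC1, was lower in both, with 5.31 FPKM under doxorubicin against 74.9 FPKM in control in KO cells and 4.05 FPKM under doxorubicin against 41.6 FPKM in control in WT cells (D = -0.51), and PSPH of serine synthesis had D of -0.51. Of 25 genes of the unfolded protein response 19 were kept and SEL1L was the 1 called (median 0.07, 0.15 with a floor of 10 FPKM and -0.20 at equal summed FPKM). The chaperone gene DNAJB11 had D of 0.88, MANF 0.68 and the translocon subunit gene SEC61B 0.61.

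Growth factor and developmental signalling genes are given beside the same shares of all kept genes. Of 28 immediate early and MAPK feedback genes 5 were kept, and FOSL1 was the 1 called, with D below 0, while the list's median D was 0.69. That median was 0.28 with a pseudocount of 5, 0.31 with a floor of 1 FPKM and 0.48 at equal summed FPKM. MYC, the growth transcription factor, had 7.41 FPKM under doxorubicin against 61.0 FPKM in control in KO cells and 4.04 FPKM under doxorubicin against 60.1 FPKM in control in WT cells (D = 0.72). JUN, the AP-1 partner of FOS proteins, had 5.21 FPKM under doxorubicin against 50.9 FPKM in control in KO cells and 2.31 FPKM under doxorubicin against 43.5 FPKM in control in WT cells (D = 0.69). All 3 were lower under doxorubicin in both genotypes, with FOSL1 the lower in KO cells and MYC and JUN the lower in WT cells. Of 24 TGF-beta, activin and ID genes 12 were kept, 1 had D of 1 or more (ID1) and 2 had D of -1 or less (TGFBR2 and the set-apart ID2), with a median of -0.07, which was 0.029 with a floor of 10 FPKM and -0.30 at equal summed FPKM. INHBB, an activin subunit, was set apart with D of 0.75. Of 32 Notch and Wnt genes 6 were kept and WNT7B was the 1 called (median 0.06, and -0.20 at equal summed FPKM). WNT7B, a Wnt ligand, had 1.05 FPKM under doxorubicin against 23.6 FPKM in control in KO cells and 5.19 FPKM under doxorubicin against 29.2 FPKM in control in WT cells (D = -1.29, and -0.49 with a pseudocount of 5). DKK1, a secreted Wnt inhibitor, was lower in both genotypes, with 4.50 FPKM under doxorubicin against 133 FPKM in control in KO cells and 6.10 FPKM under doxorubicin against 236 FPKM in control in WT cells (D = 0.45). HES1 had D of 0.44, and LRP5, which was set apart, -0.31.

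Among metabolic genes, SLC2A1 was the 1 called of 20 kept glycolysis and glucose transport genes out of 23 (median D -0.02, and -0.29 at equal summed FPKM). SLC2A3 and PFKFB3, a glucose transporter and the maker of a glycolytic activator, had D of -0.85 and -0.87, and passed the threshold at equal summed FPKM with -1.08 and -1.09. LDHB had D of 0.63. Of 21 hypoxia and angiogenesis genes 12 were kept and 0 called (median -0.01, 0.16 with a floor of 10 FPKM and -0.25 at equal summed FPKM), with D of 0.82 for P4HA1, -0.78 for ADM (-1.01 at equal summed FPKM) and 0.71 for NDRG1. Of 31 cholesterol and fatty acid genes 25 were kept and 2 called, 1 on each side, with ELOVL6 on the higher (median -0.08, and -0.33 at equal summed FPKM). The sterol genes IDI1 and SC5D had D of 0.65 and 0.61. Of 35 matrix, protease and EMT genes 26 were kept and CDH11 was the 1 called (median -0.15, and -0.42 at equal summed FPKM). PLAT, the tissue plasminogen activator, had 34.0 FPKM under doxorubicin against 41.7 FPKM in control in KO cells and 73.8 FPKM under doxorubicin against 47.5 FPKM in control in WT cells (D = -0.91, and -1.17 at equal summed FPKM). SPARC, a matricellular protein, was near the pseudocount in WT cells (D = 0.85), and ZEB1, a repressor of epithelial genes, had D of -0.73. Among the line's markers EGFR was called, and TGFBI and CAV1 had D of 0.72 and -0.64 (median over 8 genes -0.34, and -0.61 at equal summed FPKM). The 4 kept epithelial genes had D of -0.42 for KRT18, 0.15 for EPCAM, 0.11 for KRT8 and 0.06 for KRT19 (median 0.09, and -0.18 at equal summed FPKM).

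Respiratory chain genes lay mostly above 0. Of 38 nuclear genes for subunits of complex I, 37 were kept, 31 had D above 0 and 1 was called, with a median D of 0.38, which was 0.12 at equal summed FPKM. Over all 6180 genes, 3413 had D above 0 and the median was 0.05, which was -0.20 at equal summed FPKM. The median response of the complex I genes was 0.64 in KO cells and 0.35 in WT cells. NDUFB3 had 175 FPKM under doxorubicin against 83.2 FPKM in control in KO cells and 105 FPKM under doxorubicin against 101 FPKM in control in WT cells (D = 1.02, 0.75 at equal summed FPKM, and 0.99 with a pseudocount of 5). NDUFB5 had D of 0.94, NDUFS5 0.69 and the set-apart NDUFA12 0.70. All 13 mRNAs of the mitochondrial genome were kept, and 2 had D of 1 or more, beside 1.28% over all kept genes. The median D of the 13 was 0.32, or 0.05 at equal summed FPKM. MT-CO1, a catalytic subunit of cytochrome c oxidase, had 15041 FPKM under doxorubicin against 2374 FPKM in control in KO cells and 11291 FPKM under doxorubicin against 3629.9 FPKM in control in WT cells (D = 1.03). MT-ND3 of complex I had 4266 FPKM under doxorubicin against 2828 FPKM in control in KO cells and 4542 FPKM under doxorubicin against 6118 FPKM in control in WT cells (D = 1.02), and MT-ATP8 and MT-CO3 had D of 0.94 and 0.44. At equal summed FPKM D was 0.76 for MT-CO1 and 0.75 for MT-ND3.

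Few clock genes reached the floor. NPAS2, a partner of BMAL1, had 33.1 FPKM under doxorubicin against 59.5 FPKM in control in KO cells and 22.3 FPKM under doxorubicin against 20.7 FPKM in control in WT cells (D = -0.93, and -1.19 at equal summed FPKM). ARNTL2, the paralogue BMAL2, had 12.5 FPKM under doxorubicin against 15.6 FPKM in control in KO cells and 16.7 FPKM under doxorubicin against 13.9 FPKM in control in WT cells (D = -0.55). These were the 2 members kept of 8 in the positive arm (median -0.74, and -0.998 at equal summed FPKM). Of 13 repressors and E-box outputs, CRY1 and NR1D2 were kept. Their median was 0.04, or -0.11 at equal summed FPKM and -0.20 with a pseudocount of 0.1 FPKM. CRY1 had 7.02 FPKM under doxorubicin against 25.3 FPKM in control in KO cells and 6.85 FPKM under doxorubicin against 15.9 FPKM in control in WT cells (D = -0.60). NR1D2, the nuclear receptor REV-ERB beta, had 0.676 FPKM under doxorubicin against 1.91 FPKM in control in KO cells and 6.57 FPKM under doxorubicin against 20.1 FPKM in control in WT cells (D = 0.69). Its KO values were near the pseudocount, on which this D largely rests. The authors' deposited log2 ratios, which have no pseudocount, were close, at -3.28 under doxorubicin and -3.40 in control. CRY1 and NR1D2 were lower under doxorubicin in both genotypes, and NR1D2 was low in KO cells with or without the drug.

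**Figure D3:**
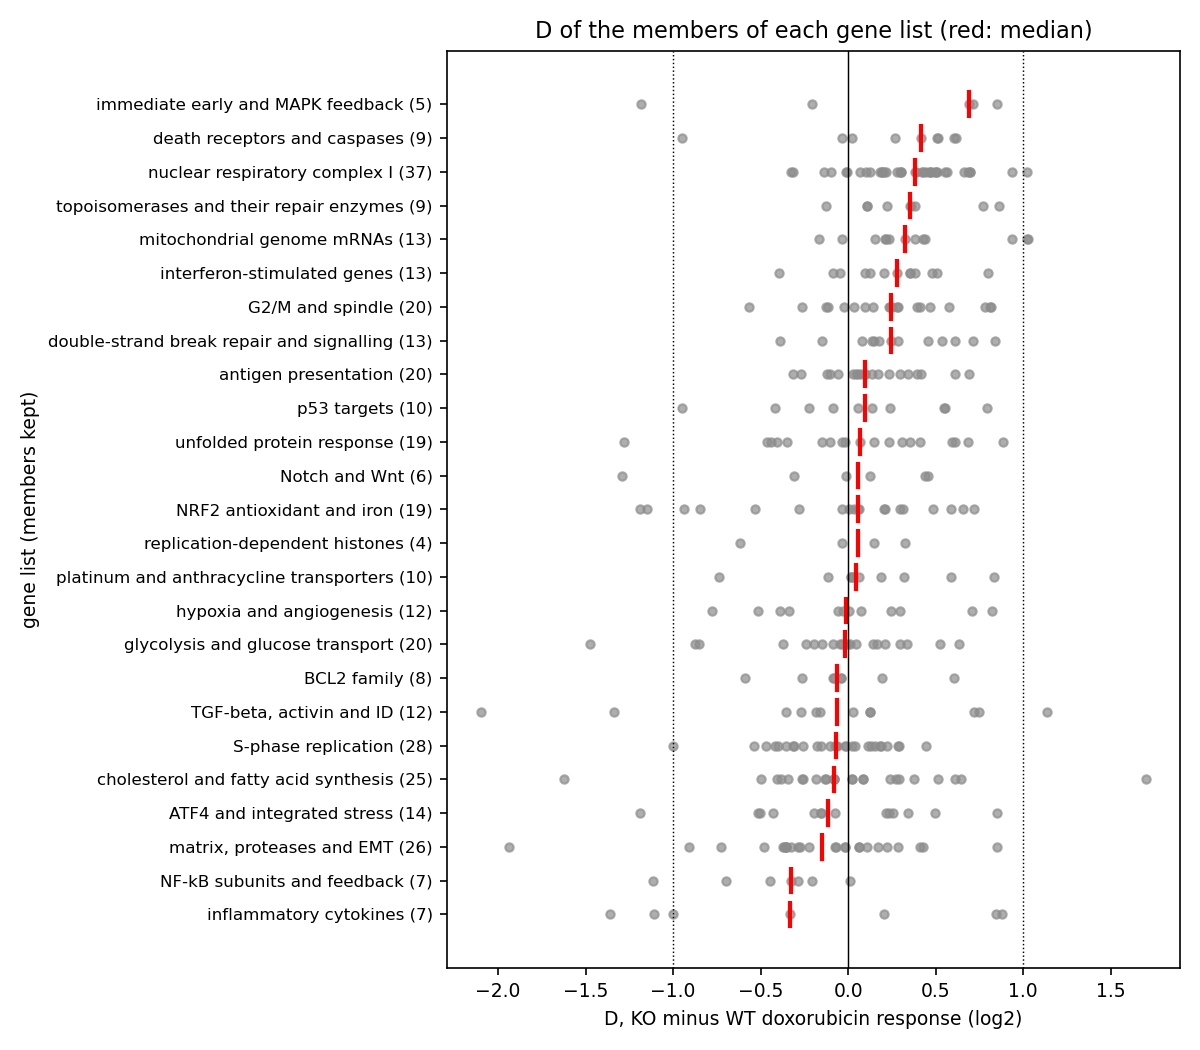
D (x axis, log2) of every kept member of each gene list with at least 4 kept members, marker lists aside; the number kept is in brackets, red bars are medians, and dotted lines mark D of 1 and -1. Most members lie between the dotted lines; the medians run from -0.33 for inflammatory cytokines, which was 0.20 with a floor of 10 FPKM, to 0.69 for the 5 immediate early genes, which was 0.28 with a pseudocount of 5.

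The authors' own test set KO against WT cells under 1 treatment at a time, and it is the only test in the deposited files. Among kept genes tested, the authors' deposited table for doxorubicin had 2319 higher (37.5%) and 1691 lower (27.4%) in KO of 6177 at q of at most 0.05. In their table for control cells 1827 genes were higher (29.6%) and 1722 lower (27.9%) in KO of 6178. Of the 145 tested genes with D of -1 or less, the authors' deposited tables had 112 lower and 5 higher in KO under doxorubicin, and 14 lower and 71 higher in KO in control. The turnover, lower in KO under doxorubicin and higher in KO in control, was found in 46 of these genes, and in 156 of all 5691 tested genes that were not set apart. Of the 67 genes with D of 1 or more, 45 were higher and 3 lower in KO under doxorubicin, and 3 were higher and 36 lower in KO in control. In 23 of them the gene was higher in KO under doxorubicin and lower in KO in control, as it was in 212 of all 5691. D uses the same values as these calls, so the counts describe where the difference lay and are no separate evidence for it. A q-value per table does not test D.

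In the cisplatin and tunicamycin tables, which share no library with the control and doxorubicin tables, the same genes can be read without the groups that chose them. For the 146 genes with D of -1 or less the median log2 KO over WT ratio was -0.85 in doxorubicin, -0.21 in cisplatin, 0.02 in tunicamycin and 0.40 in control. For the 67 genes with D of 1 or more it was 0.63 in doxorubicin, 0.17 in cisplatin, 0.20 in tunicamycin and -0.60 in control. Over all 5694 genes not set apart it was 0.07 in doxorubicin, 0.02 in cisplatin, 0.09 in tunicamycin and 0.01 in control. The cisplatin medians of both sets and the tunicamycin median of the second set lay on the doxorubicin side of 0. The 25th to 75th percentiles of genes spanned 0 in each of these, however. In cisplatin they were -0.49 to 0.09 in the first set and -0.29 to 0.48 in the second. In tunicamycin they were -0.35 to 0.44 in the second set, whose median also stands beside 0.09 over all genes. For the first set the tunicamycin median lay near 0. F3 had log2 KO over WT ratios of -0.42 in cisplatin and -0.31 in tunicamycin, beside -2.65 in doxorubicin and -0.38 in control. EGFR had -1.03 in cisplatin and -0.46 in tunicamycin, beside -1.51 in doxorubicin and 0.01 in control. ELOVL6 had 0.25 in cisplatin and 0.21 in tunicamycin, beside 2.00 in doxorubicin and 0.30 in control. F3 and ELOVL6 thus parted by genotype in the doxorubicin table far more than in the other 3 tables, a difference with no test here.

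**Figure D4:**
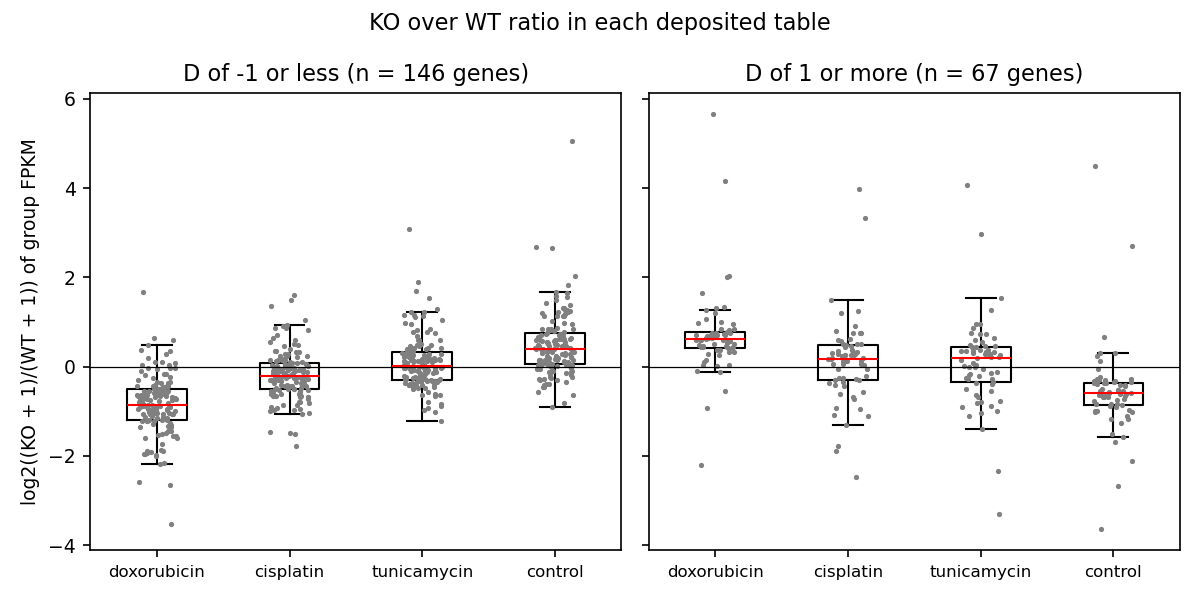
Log2 KO over WT ratio of group FPKM (with 1 added) in the doxorubicin, cisplatin, tunicamycin and control tables for the 146 genes with D of -1 or less (left) and the 67 with D of 1 or more (right), none of them set apart. Each point is a gene, boxes span the 25th to 75th percentile with the median in red, and whiskers reach the last point within 1.5 box lengths. The doxorubicin and control boxes lie on opposite sides of 0. The choice of genes requires that the 2 ratios of a gene differ by 1 or more, not that they differ in sign.

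D also varied with the annotated form of the mRNA. Length and GC content were medians over all annotated protein-coding transcripts of a gene, whether or not these were expressed here. The measure gave 579 bases for TOP2A, and the lengths of the expressed mRNAs were not determined. Over the 5913 protein-coding genes, ordered by length and cut into 5 equal groups, the median D was 0.15, 0.14, 0.10, 0.00 and -0.16 with increasing length. Genes with D of -1 or less (2.67% of the protein-coding genes) numbered 27, 17, 25, 30 and 59 in these groups, and genes with D of 1 or more (0.964%) 16, 16, 12, 6 and 7. With increasing GC content the median D of 5 such groups was 0.14, 0.14, 0.06, 0.01 and -0.04. Spearman's rho between D and length was -0.25, between D and GC content -0.18 and between D and the span of the gene in the genome -0.17, each across 5913 genes and with no test. For the 51 protein-coding genes with D of 1 or more that were not set apart, the median annotated length was 1107 bases. Their median GC content was 45.8% and their median span 17.4 kb. For the 140 with D of -1 or less these medians were 2191 bases, 51.8% GC and 57.5 kb. All kept protein-coding genes had medians of 1453 bases, 51.0% GC and 28.2 kb. Within the control table the median log2 KO over WT ratio ran with GC content, being -0.23 in the group of lowest and 0.19 in that of highest GC content, and within the doxorubicin table it was -0.05 in the lowest and 0.13 in the highest. The part of length and GC content in the counts above was not tested.

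**Figure D5:**
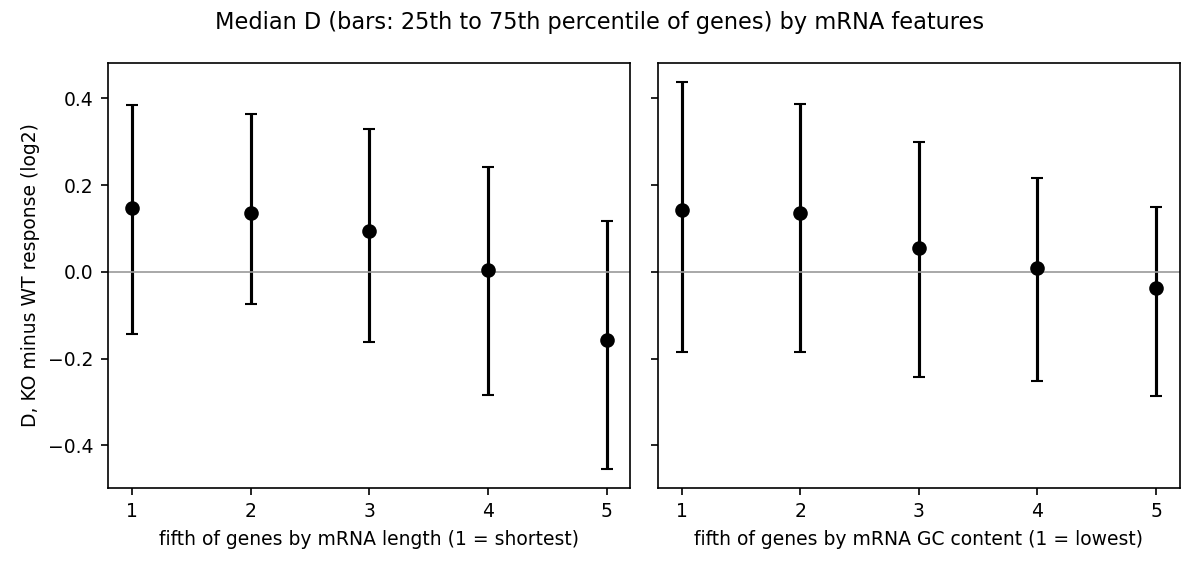
Median D (points) and its 25th to 75th percentile over genes (bars) in 5 equal groups of the 5913 kept protein-coding genes. Groups are by mRNA length (left) and mRNA GC content (right), each the median over the annotated protein-coding transcripts of a gene. The median runs from 0.15 in the shortest to -0.16 in the longest group, and the spread within each group is wider than the drift between groups.

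BMAL1 binds the E-box CACGTG, so the promoters of the called genes were searched for these letters (the motif reads the same on both strands) from 250 bases before to 50 bases after the gene start. Promoter sequences were those of RefSeq on GRCh38.p14, and 4967 of the kept genes (80.4%) could be matched to one. The motif was present in 3 of 43 promoters of genes with D of 1 or more (6.98%), in 11 of 111 of those with D of -1 or less (9.91%), in 554 of 4967 of the kept genes (11.2%) and in 2030 of all 27305 promoters (7.43%). The share among called genes was not above that among kept genes in either direction. The promoters below are the 3 on the higher side that hold the motif and the 2 on the lower side that hold it more than once, shown so that number and place of the motif can be compared. Capitals mark CACGTG.
CDKN2C, chr1:50960495-50960794, plus strand: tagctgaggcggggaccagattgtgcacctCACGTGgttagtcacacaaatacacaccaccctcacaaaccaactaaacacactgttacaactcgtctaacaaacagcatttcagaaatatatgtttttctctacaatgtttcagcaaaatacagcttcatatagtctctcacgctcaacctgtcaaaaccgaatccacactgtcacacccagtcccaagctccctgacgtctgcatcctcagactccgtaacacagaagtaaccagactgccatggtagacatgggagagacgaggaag
KLHDC3, chr6:43013999-43014298, plus strand: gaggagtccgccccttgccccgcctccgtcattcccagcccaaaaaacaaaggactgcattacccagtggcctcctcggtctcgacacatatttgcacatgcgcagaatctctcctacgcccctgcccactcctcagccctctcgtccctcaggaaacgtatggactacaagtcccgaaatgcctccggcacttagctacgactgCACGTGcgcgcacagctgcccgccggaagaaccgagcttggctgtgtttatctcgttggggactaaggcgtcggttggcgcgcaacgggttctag
LINC00493 (SMIM26 in RefSeq), chr20:18567182-18567481, plus strand: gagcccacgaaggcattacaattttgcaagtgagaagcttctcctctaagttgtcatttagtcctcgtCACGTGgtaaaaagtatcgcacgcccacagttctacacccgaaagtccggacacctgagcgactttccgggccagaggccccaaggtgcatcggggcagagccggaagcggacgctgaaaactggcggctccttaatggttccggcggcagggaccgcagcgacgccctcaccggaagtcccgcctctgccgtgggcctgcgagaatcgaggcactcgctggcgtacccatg
ARFGEF2, chr20:48921461-48921760, plus strand: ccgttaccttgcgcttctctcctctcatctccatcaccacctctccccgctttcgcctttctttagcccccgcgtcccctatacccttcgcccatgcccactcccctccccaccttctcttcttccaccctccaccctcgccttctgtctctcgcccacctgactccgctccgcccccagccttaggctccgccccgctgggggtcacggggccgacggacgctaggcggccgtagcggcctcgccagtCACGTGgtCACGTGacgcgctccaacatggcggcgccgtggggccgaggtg
PTPRS, chr19:5340763-5341062, minus strand: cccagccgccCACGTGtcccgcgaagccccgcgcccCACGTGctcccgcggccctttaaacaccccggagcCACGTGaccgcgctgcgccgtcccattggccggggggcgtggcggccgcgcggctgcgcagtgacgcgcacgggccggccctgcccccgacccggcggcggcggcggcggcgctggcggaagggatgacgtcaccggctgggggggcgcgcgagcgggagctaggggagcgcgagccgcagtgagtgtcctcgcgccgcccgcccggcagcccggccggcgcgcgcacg

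Counted from the gene start, with negative positions before it, the motif began at -220 in CDKN2C, at -182 in LINC00493 and at -45 in KLHDC3. ARFGEF2 held 2 copies beside the start, at -1 and 7. PTPRS held 3 copies, at -240, -214 and -179. LINC00493 had 21.1 FPKM under doxorubicin against 47.4 FPKM in control in KO cells, and 14.4 FPKM under doxorubicin against 72.1 FPKM in control in WT cells (D = 1.11). ARFGEF2, an activator of ARF GTPases in vesicle traffic, had 2.11 FPKM under doxorubicin against 12.6 FPKM in control in KO cells, and 6.22 FPKM under doxorubicin against 11.2 FPKM in control in WT cells (D = -1.37). PTPRS, a receptor tyrosine phosphatase, had 13.2 FPKM under doxorubicin against 19.7 FPKM in control in KO cells, and 20.9 FPKM under doxorubicin against 13.7 FPKM in control in WT cells (D = -1.12). LINC00493 was thus lower under the drug in both genotypes, ARFGEF2 was lower in both and more so in KO cells, and PTPRS had opposite responses. A match is a run of letters and does not show binding.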

How the data were processed

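RNA-seq of MDA-MB-231 cells was deposited by the authors as 1 table per treatment, each comparing KO with WT cells over 60658 genes. The tools named, per the submitters' processing notes, were STAR 2.5.3, Trimmomatic 0.35, FastQC 0.11.5, Cuffdiff and Cufflinks, with build hg38. The sources used here give no version of the last 2, no roles, no annotation and no use of strand, so values of overlapping or antisense genes are uncertain. Per the file headers, the FPKM of each group is a Cuffdiff estimate that the authors made over its replicates, and no value per library was used. The log2 ratios deposited by the authors are KO over WT FPKM with no pseudocount. The score deposited by the authors is Cuffdiff's test statistic. The p-values and q-values deposited by the authors are for KO against WT within a table. They rest on only 2 replicates per group, which the labels call biological without saying how they were grown, so the spread between replicates may be partly technical. The q-values 0.000186 under doxorubicin and 0.000213 in control recur for many genes and do not rank them. The columns were assigned to KO and WT from the group order in the table names and the group codes inside the tables.

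The doxorubicin and control tables, which were normalized separately, were joined on gene identifier, with a floor of 5 FPKM in 1 group of each, a pseudocount of 1 FPKM, and a threshold of 1 on the log2 scale. This scale understates the change of low genes. D has no test, and the authors' calls were taken at q of at most 0.05. The planned interaction test needed values per library and was not run. Read depth is unknown. The 5th percentile of values above 0, which is smaller in a deeper group, was 0.0175 FPKM in KO and 0.0141 FPKM in WT doxorubicin, against 0.0287 FPKM in KO and 0.0388 FPKM in WT control. mRNA length and GC content were medians over the protein-coding transcripts of a gene in GENCODE release 29, and promoters came from RefSeq. Python 3.11.15, pandas 2.3.3 and numpy 2.4.6 were used, and the scripts were tested on simulated data.

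Named genes were those with the 6 largest and 6 smallest D in each of the 4 response patterns, the 5 largest and 5 smallest among genes set apart, up to 4 kept members of each of 31 gene lists by size of D, and the clock genes. Of these, 7 were loci known by clone names and were counted, not named. Some genes that this rule names are not reported here. The remaining genes in the text, namely those next to a threshold, those with more E-boxes and the loci found in 1 group, were chosen after their values were seen. The members, lists and rules were chosen with earlier results of these data known.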

Additional observations from a re-analysis of the deposited data

How the results depend on the processing

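The main counts were 79 genes with D of 1 or more, 202 with D of -1 or less, 486 set apart, 68 of these called, 48 KO-only and 8 WT-only responses. With a pseudocount of 5 FPKM they were 41 and 87 called, 20 KO-only and 2 WT-only, and the D of 24 named genes fell short of the threshold. With a pseudocount of 0.1 FPKM they were 104 and 252 called. A floor of 1 FPKM kept 10139 genes and gave 177 and 411 called, 853 set apart with 176 called, 97 KO-only and 13 WT-only. A floor of 10 FPKM kept 4625 genes and gave 109 genes with D of -1 or less, 38 set apart and called, and 3 WT-only. At equal summed FPKM of nuclear genes, 36 and 360 genes were called, 97 were KO-only, the median D moved by -0.25, 7 named genes fell short of the threshold and 9 others passed it. The same scaling without loci above 0 in only 1 group, chosen after seeing the data, gave 38 and 334 called, 90 KO-only, a shift of -0.22 and a higher share of 10.2% of the calls. Median centring gave 13 WT-only responses. WT control stood apart in 191 genes with a gap over 2 times the range and in 267 with a gap of at least 0.5 as well. A quiet limit of 0.3 gave 4 WT-only responses. The cause of these shifts was not tested. Leaving out untested genes, or mitochondrial, histone and short genes, kept all 6 counts within 1.5 times the main values, and no named gene that was called changed direction under any alternative. No paired analysis was possible because each group had 1 pooled value, and for the same reason no replicate could be left out. Depth per library is not known, so differences between low values could not be judged against counting error.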

Other observations

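Single loci held large values in 1 group only. AC006115.1, a locus with no entry in GENCODE release 29, had 24196 FPKM in KO doxorubicin and was listed at 0 in the other 7 groups of the series. MT-TV, a mitochondrial transfer RNA gene on the mitochondrial chromosome at 1602 to 1670, had 35600 FPKM in WT doxorubicin and was listed at 0 in the other 7 groups. Both are left out of the counts of called genes, since neither reached 5 FPKM in a group of the control table. FTL, the ferritin light chain, was higher in KO than in WT cells in all 4 treatments, with 21375 FPKM in KO and 4453 FPKM in WT cells under doxorubicin, and 8634 FPKM in KO and 2069 FPKM in WT cells in control.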
